A study of Mus musculus with 36 samples.

Results

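The ubiquitin ligase and deubiquitinase families were taken as every Ago2 peak whose assigned gene symbol starts with Ube2, Ube3, Cul, Fbxo, Fbxl, Fbxw, Rnf, Trim or Usp followed by a letter or digit, with Rnf43 left out. The rule found 137 peaks in 82 genes, of 7585 annotated peaks in 3933 genes. Of the 9 families it names, 8 had a peak and Fbxw had none. The Rnf family gave 49 peaks in 27 genes, Usp 27 in 18, Trim 23 in 11, Ube2 18 in 12, Fbxo 6 in 5, Fbxl 6 in 4, Cul 5 in 3 and Ube3 3 in 2. Membership follows the symbol and not the activity: Usp6nl, which the rule includes, is a GTPase-activating protein for Rab proteins and not a deubiquitinase.

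Ubiquitin is a small protein that is joined to other proteins through a relay: an E2 conjugating enzyme (the Ube2 genes) carries it, and an E3 ligase picks the substrate. HECT ligases such as Ube3a take the ubiquitin over before passing it on, RING ligases (many Rnf and Trim genes) bring E2 and substrate together, and cullins (Cul) are scaffolds that hold a RING protein at one end and a substrate receptor, such as an F-box protein (Fbxo, Fbxl), at the other. Deubiquitinases of the Usp family remove the mark. In the gut epithelium ubiquitin ligases set the stability of beta-catenin, Myc and cyclins, the proteins downstream of Apc. Ago2 is the protein that holds a miRNA, and it finds its targets mainly by pairing of the miRNA seed, bases 2 to 8, with the mRNA.

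The peaks come from colonic tumours of C57BL/6 mice, in which Ago2 fused to a Halo tag was pulled down after UV crosslinking and the RNA bound to it was sequenced (HEAP, a form of CLIP). WT tumours had the genotype Halo-Ago2/+; Villin-CreER/+; Apc(fl/fl), and G12D tumours carried the allele K-Ras-G12D/+ as well, so Apc loss and the Halo-Ago2 allele are common to both groups. Villin drives the Cre in gut epithelium. Mice aged 8 to 12 weeks received 200 µl of 4-hydroxytamoxifen (5 mg/ml) by enema to activate it, and tumour tissue along the colon was taken once the animals were moribund. Each group had 6 samples, 3 in each of 2 labelled batches. Nothing in the labels ties a sample to a single mouse. The spread behind each p-value is that between samples and may be partly technical. A value below is a normalised count of reads in a peak, and it mixes the amount of an RNA with its binding to Ago2. In such bulk tissue, fewer cells of a type and less RNA per cell cannot be told apart. Of 10 colon epithelium markers 9 had a peak, of 10 fibroblast and smooth muscle markers 3 (Col1a1, Col1a2 and Col3a1), and none of the 10 leukocyte or 7 endothelial markers had one. The summed values of the epithelial marker peaks ran from 770.1 to 10240.1 in WT and from 4637 to 10240.7 in G12D. Those of the fibroblast and smooth muscle peaks ran from 18.1 to 679 in WT and from 218 to 709 in G12D, and the part of either in the results was not tested.

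Reads in the peaks of the 12 mRNA libraries came to between 30607 and 974013. WT replicates 5 and 6 stood apart, with 30607 and 57037 reads: 89 and 48 of the 137 member peaks had no read there, against 0 to 6 in each of the other 10 libraries. For such a peak a count of 0 allows up to 3 reads, which is 13.6 normalised counts in WT replicate 5 and 7.23 in WT replicate 6 but 1.47 in WT replicate 1. These limits cover counting error only. The genotype counts, the family medians and the larger changes of single peaks are therefore given with and without WT replicates 5 and 6.

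The miRNAs whose seeds recur in the member peaks are shown first, because the sites described below are matches to these letters. One miRNA is given for each of the 10 seed families with the most member peaks, the one with the highest level on Ago2, and let-7b-5p and miR-17-5p are added to show a seed shared within a family. Capitals mark the seed. The mature sequences are from RefSeq (GRCm38.p6).
let-7i-5p: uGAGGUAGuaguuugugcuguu
let-7b-5p: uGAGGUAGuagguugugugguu
miR-16-5p: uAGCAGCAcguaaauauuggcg
miR-20a-5p: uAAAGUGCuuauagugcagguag
miR-17-5p: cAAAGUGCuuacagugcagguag
miR-194-5p: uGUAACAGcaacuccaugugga
miR-19b-3p: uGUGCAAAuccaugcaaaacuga
miR-26a-5p: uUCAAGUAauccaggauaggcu
miR-29a-3p: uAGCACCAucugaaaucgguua
miR-200c-3p: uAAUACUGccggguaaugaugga
miR-24-3p: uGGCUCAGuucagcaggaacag
miR-92a-3p: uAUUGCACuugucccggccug

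Among these families let-7 led. A let-7 site, annotated by the authors as an 8-base match or 1 of 2 kinds of 7-base match (the full seed match reads CUACCUC on the mRNA), stood in 23 member peaks of 19 genes. That was 16.8% of the member peaks, against 10.3% of all annotated peaks. In the 3'UTR the shares were 16.9% of 71 member peaks and 7.79% of 3940 annotated peaks, and in exons 14.9% of 47 and 13.0% of 2440. Of the 12 such member peaks in the 3'UTR, 4 are neighbours in Trim6, described below. Counted by gene over all regions, which removes the weight of genes with several such peaks, 23.2% of the 82 genes and 18.7% of all 3933 had at least 1 let-7 peak. The genes were Cul5, Fbxo32, Rnf111, Rnf135, Rnf31, Rnf39, Rnf44, Rnf7, Trim2, Trim25, Trim6, Ube2b, Ube2g2, Usp10, Usp24, Usp25, Usp28, Usp47 and Usp54. They include an E2 (Ube2b, which works with the DNA-repair ligase Rad18), a cullin and its RING partner (Cul5 and Rnf7), the linear-chain ligase Rnf31, and the related deubiquitinases Usp25 and Usp28. The 8mer, the strongest kind of site, which adds an A opposite the first base of the miRNA, stood in 9 of the 23 peaks. Of these, 4 were in Trim6.

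Sites of the miR-15/16, miR-17 and miR-194 families followed with 9 member peaks each (6.57% of the members, against 6.24%, 5.60% and 4.65% of annotated peaks), then miR-19, miR-26 and miR-29 with 8 each, and miR-200, miR-24 and miR-25/92 with 6 each. The miR-19 share was 5.84% of member peaks against 3.03% of annotated peaks, the miR-26 share 5.84% against 3.16%, and the miR-25/92 share 4.38% against 2.73%. Shares of miR-29 (5.84% against 6.10%), miR-24 (4.38% against 5.08%) and miR-200 (4.38% against 5.68%) were lower in the members. The miR-15/16 sites included an 8mer in the exon peak of Usp1 and one in a 3'UTR peak of Cul4b, and miR-19 8mers stood in peaks of Rnf11, Rnf111, Rnf139 and Rnf167. miR-25/92 8mers stood in Trim36, Rnf4, Rnf213 and Usp33, and miR-26 8mers in Fbxl19, Ube2b, Ube2e3, Ube2j1 and Usp25. The shares are descriptions, with no test, and the authors' site calls were used as given.

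**Figure D1:**
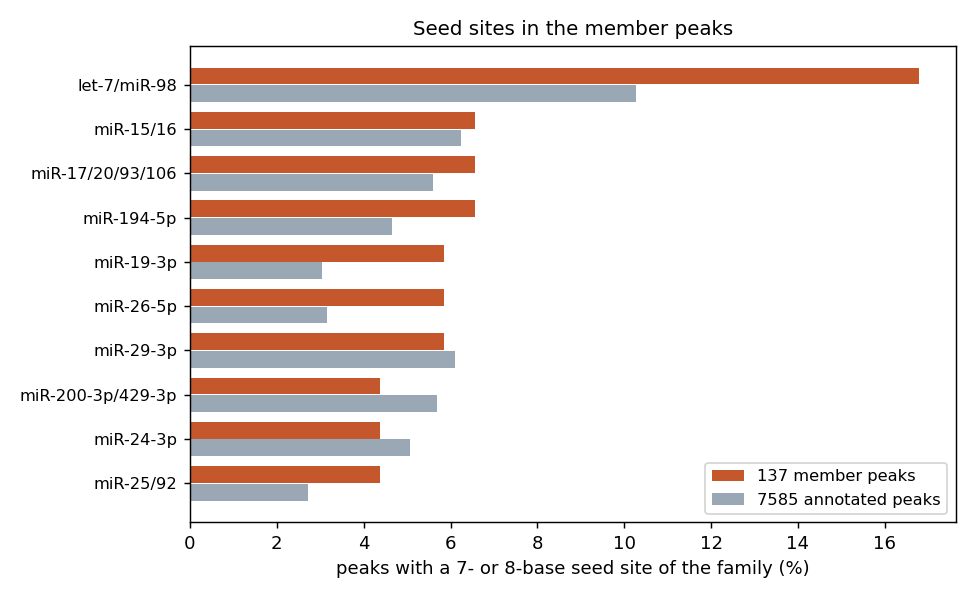
Share of peaks with a 7- or 8-base seed site, in percent (x axis), for the 10 seed families with the most member peaks (y axis); red bars are the 137 member peaks and grey bars the 7585 annotated peaks. The let-7 bars stand at 16.8% and 10.3%, and the other families lie below 7% in both sets.

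In all, 109 of the 137 member peaks (79.6%) had a 7- or 8-base site of some family, against 76.0% of annotated peaks, and 51 (37.2%) had an 8mer, against 35.6%. Sites of at least 2 families stood in 44.5% of member peaks and 37.7% of annotated peaks. The gap was mostly in the 3'UTR, at 59.2% of 71 member peaks against 39.9% of 3940. In exons it ran the other way, at 31.9% against 36.4%, and in introns too, at 12.5% of 16 against 33.4% of 921. The 5'UTR had 2 of 3 member peaks, against 32.7% of 284. The 3'UTR peak of Trim36 held sites of 3 families, with 8mers of miR-141 and miR-25/92 and a 7-base site of miR-15/16. One 3'UTR peak of Ube2j1, an E2 of the endoplasmic reticulum, held sites of the miR-17, miR-221/222, miR-21-3p and miR-15/16 families.

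On Ago2 the miRNAs of these families were abundant, and none of them passed the test between genotypes. let-7i-5p, the let-7 member with the highest value, had 5149, 5519 and 6596 normalised counts in the WT libraries (lowest, median and highest) and 4932, 5380.1 and 6317 in G12D, with a log2 fold change of -0.03 (limma, SE 0.07, adjusted p = 0.819). miR-194-5p, a miRNA of the gut epithelium, had 11538, 12559.5 and 14814 in WT and 11406, 13732 and 14291 in G12D. In both cases the groups overlapped. The widest change among the 36 miRNAs tested in these families was in let-7a-5p, at 0.62 (SE 0.38, limma adjusted p = 0.438), and the smallest adjusted p was that of miR-29a-3p, with 854, 954 and 1079 in WT, 697, 811 and 929 in G12D and a log2 fold change of -0.26 (SE 0.10, adjusted p = 0.175). Of all 284 miRNAs tested 3.87% passed. Summed over the family, the mean let-7 level was 16382 ± 1843 among WT libraries and 16466 ± 1763 among G12D libraries (SD over 6).

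In Trim6 the let-7 peaks stood side by side. Trim6 is a ligase of innate immune signalling that makes unanchored ubiquitin chains. Of its 6 peaks, all in the 3'UTR, 4 are neighbours at chr7:104233452-104233690 on the plus strand (coordinates here are those of the deposited peaks, mm10/GRCm38), with gaps of 5, 37 and 11 bases, and each of the 4 was annotated with a let-7 8mer. No other gene in the table had as many peaks with a let-7 8mer: Dicer1, the enzyme that cuts miRNA precursors, came next with 3. An 8mer of miR-16-1-3p was annotated as well in 3 of the 4 Trim6 peaks, beside 12 of all annotated peaks. The 4 peaks share an RNA and are not replicates of each other. Summed over the 4 peaks, the WT libraries had 4.53, 82.6 and 162 normalised counts (lowest, median and highest) and the G12D libraries 51.3, 119.5 and 254, so the groups overlapped. The 2 tall peaks had means of 46.8 and 47.3 over the 12 libraries, and the 2 low ones 10.3 and 7.68. None of the 4 passed the limma test, with log2 fold changes of 0.43, 1.44, -0.09 and 1.41 from the first peak to the last. Of the 4 peaks, 3 were in the peak lists of both genotypes and the other one in the WT list alone. The remaining pair of Trim6 peaks, 782 bases or more beyond them, held no let-7 site and were in the G12D list alone.

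Trim25 also had 6 peaks and Rnf213 had 11. Trim25, the ligase that activates the RNA sensor RIG-I, had its tallest peak in an exon at chr11:88999937-88999990, with a mean of 144.5, and 5 peaks of 16.5 to 26.4 in the 3'UTR, one of them with a let-7 site. Rnf213, a very large ligase with an ATPase motor, had peaks over 91945 bases of chromosome 11, of which 7 lie in exons, 2 in introns and 2 in the 3'UTR. One exon peak, at chr11:119483836-119483884 and with a miR-25/92 8mer, had a mean of 116 while its other 10 peaks had 5.05 to 31.0. Usp25 had 5 peaks of 1.69 to 25.5, and Usp9x, a deubiquitinase that stabilises Mcl1, had 4 of 10.1 to 29.1 on the X chromosome. At the other end, 55 of the 82 genes had 1 peak, 16 had 2 and 6 had 3.

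**Figure D2:**
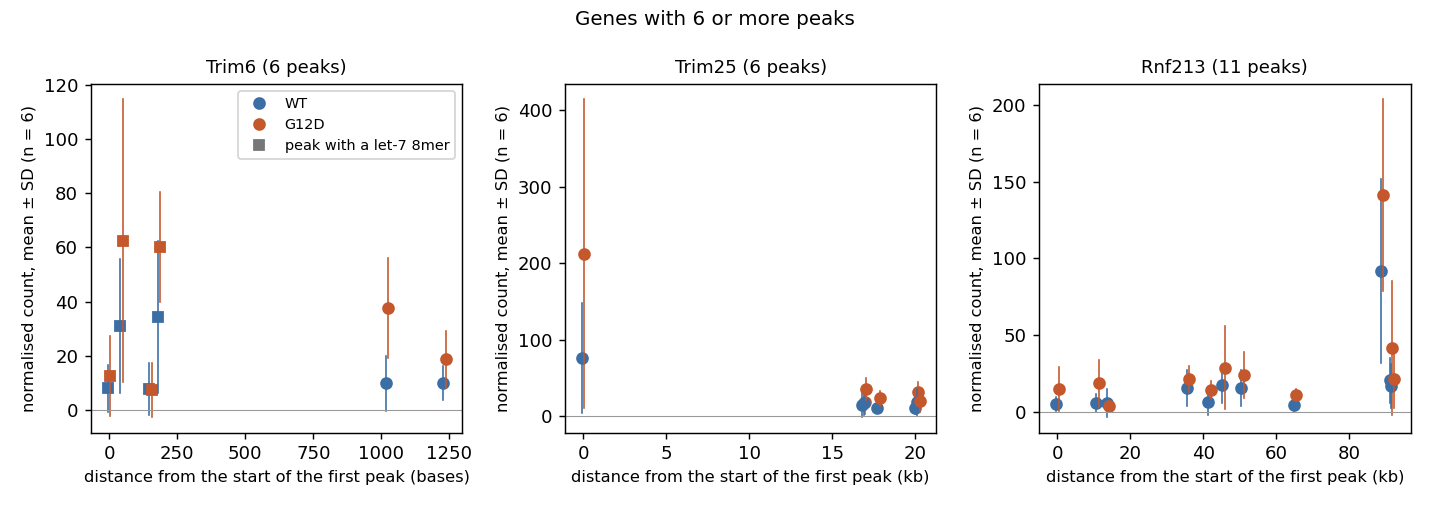
Mean normalised count ± SD (y axis, n = 6 libraries per genotype, separate scale in each panel) of every peak of Trim6, Trim25 and Rnf213 against its distance from the start of the gene's first peak (x axis, in bases for Trim6 and kb for the others); squares are peaks with a let-7 8mer. The 4 let-7 peaks of Trim6 lie within 239 bases, and 1 exon peak stands above the rest in Trim25 and in Rnf213.

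The members were placed in genes much like the other peaks. The 3'UTR held 51.8% of member peaks and 51.9% of annotated ones, exons 34.3% and 32.2%, introns 11.7% and 12.1%, and the 5'UTR 2.19% and 3.74%. Among the families the E2 enzymes differed in this, with 8 of their 18 peaks in introns (Ube2h alone had 3), against none of 23 in Trim and 5 of 49 in Rnf. Peak width had a median of 56 bases in both sets, and the median peak height over the 12 libraries was 18.6 and 18.7. The members' reads made up 1.41% ± 0.249 of peak reads among WT libraries and 1.46% ± 0.179 among G12D libraries (SD over 6). Of the 137 peaks, 35 were in the lists of both genotypes, 98 in the G12D list alone and 4 in the WT list alone, which is 25.5%, 71.5% and 2.92% against 26.2%, 71.9% and 1.96% of annotated peaks. The 4 in the WT list alone were peaks of Rnf213, Trim26, Trim6 and Ube3a. The authors made 1 list per genotype, so list membership has no replicates, and the 2 shallow libraries belong to WT.

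A few tall peaks held much of the signal. Of the 137 peaks 7 had a mean of 100 or more, 74 were under 20, and the top 5 held 31.7% of the summed member values. The tallest was a 3'UTR peak of Trim36 on chromosome 18, a microtubule-binding RING ligase, with a mean of 504. Its mean was 118 in batch 1 and 889 in batch 2. In batch 1 it reached 208, against 419 in the Usp1 peak, 412 in the Fbxo32 peak and 355 in that of Rnf169. The order given here is that over all 12 libraries. An exon peak of Usp1, the deubiquitinase that acts on Fancd2 and PCNA in DNA repair, had 397. Fbxo32 (atrogin-1, an F-box protein known from muscle wasting) followed with a 3'UTR peak of 256, then Rnf169, which binds ubiquitinated chromatin at DNA breaks, with 210 (209.7), the Trim25 exon peak with 144.5, the lysosomal ligase Rnf167 with 137 and the Rnf213 exon peak with 116. Divided by peak width, the order of the first 5 was the same, from 9.50 normalised counts per base in Trim36 and 8.82 in Usp1 to 4.56, 3.68 and 2.68. No Ube3 peak exceeded 13.4 and no Ube2 peak 70.2. Of 11 well-studied genes looked up by name, Fbxw7, Cul1, Cul3, Usp7, Trim71 and Rnf2 had no peak.

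**Figure D3:**
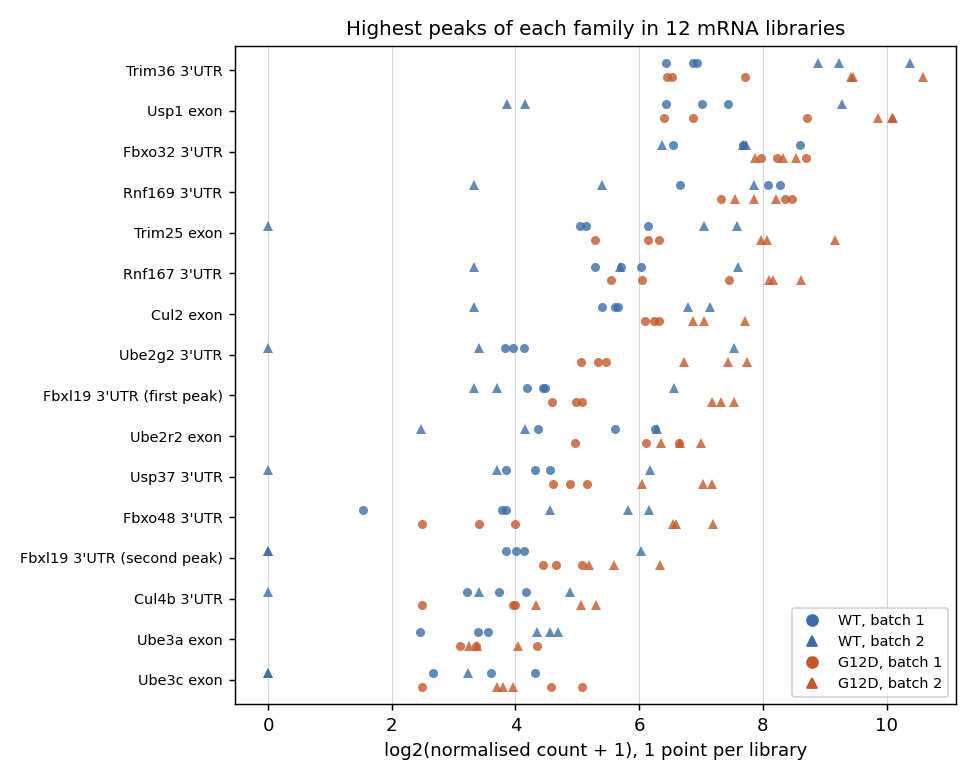
log2 of the normalised count plus 1 (x axis) in each of the 12 mRNA libraries for the highest 2 peaks of each family (y axis); blue is WT, red is G12D, circles are batch 1 and triangles batch 2, and a point at 0 had no read. WT replicates 5 and 6 give most of the lowest WT points, while in Trim36 all 6 libraries of batch 2 lie above all 6 of batch 1.

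Between genotypes no member peak passed the test. Of 136 members tested, the limma fit with batch called none higher and none lower (0 and 0) past an adjusted p of 0.05, as of all 7527 peaks (0% in either direction). At an unadjusted p under 0.05, 51 members (37.5%) were higher and 0 lower, beside 35.9% and 0.173% of all peaks. DESeq2 with the deposited size factors called 10 of 137 higher (7.30%) and 0 lower, beside 9.87% and 0.353% of all peaks, and edgeR with the same factors called 0, beside 0.0531% higher and 0.0797% lower. These counts turned on the scaling. With size factors that DESeq2 estimated on the peaks, 0 members passed in either direction, beside 0.575% and 0.98% of all peaks, so that all 10 calls were lost. At an unadjusted p under 0.05 that fit had 4 members higher and 5 lower, beside 5.71% and 4.52% of all peaks. With edgeR's TMM factors 0 members passed (0.0133% and 0.146% of all peaks), with 3 higher and 5 lower at an unadjusted p (4.17% and 3.61% of all peaks). With limma relative to the median peak 0 were higher and 2 lower at an unadjusted p, beside 0.399% and 2.96%. The members' median log2 fold change was 1.32 and that of all tested peaks 1.33. Without WT replicates 5 and 6 the medians were 0.39 and 0.38, and at an unadjusted p under 0.05 12 members (8.82%) were higher and 0 lower, beside 14.3% and 0.917% of all peaks. Within batch 1 the medians were 0.56 and 0.44, and within batch 2, which holds both shallow libraries, 2.20 and 2.24. The members' medians were thus close to those of all peaks, and the larger values below are also given relative to the median of all tested peaks. With a pseudocount of 5 in place of 1, limma called 8 members higher and 0 lower, beside 6.72% and 0.093%, and within batch 2 it called 3 and 0, beside 3.11% and 0%. Leaving out WT replicate 4 moved the count most among the fits run: without it, 69 of 136 members (50.7%) passed as higher, beside 45.1% of all peaks.

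By family, the median log2 fold change relative to all peaks was 0.16 in Ube2, -0.04 in Ube3, -0.05 in Cul, -0.26 in Fbxo, 0.55 in Fbxl, -0.03 in Rnf, -0.27 in Trim and 0.05 in Usp. Without WT replicates 5 and 6 the same medians were 0.16 in Ube2, -0.44 in Ube3, 0.20 in Cul, -0.09 in Fbxo, 0.29 in Fbxl, -0.03 in Rnf, 0.03 in Trim and 0.05 in Usp, so that the sign turned for Trim and Cul. Fbxl, with 6 peaks of 4 genes, had the highest median in both fits, and the lowest was that of Trim with all libraries and that of Ube3 without the shallow ones. At an unadjusted p under 0.05 there were 7 of 18 higher in Ube2, 1 of 3 in Ube3, 2 of 5 in Cul, 1 of 6 in Fbxo, 4 of 6 in Fbxl, 17 of 49 in Rnf, 8 of 23 in Trim and 11 of 26 in Usp, and none lower. Without WT replicates 5 and 6 there were 3 in Ube2, 0 in Ube3, 1 in Cul, 1 in Fbxo, 3 in Fbxl, 0 in Rnf, 3 in Trim and 1 in Usp, and none lower. These are descriptions of unequal and small groups of peaks, several of which share a gene.

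**Figure D4:**
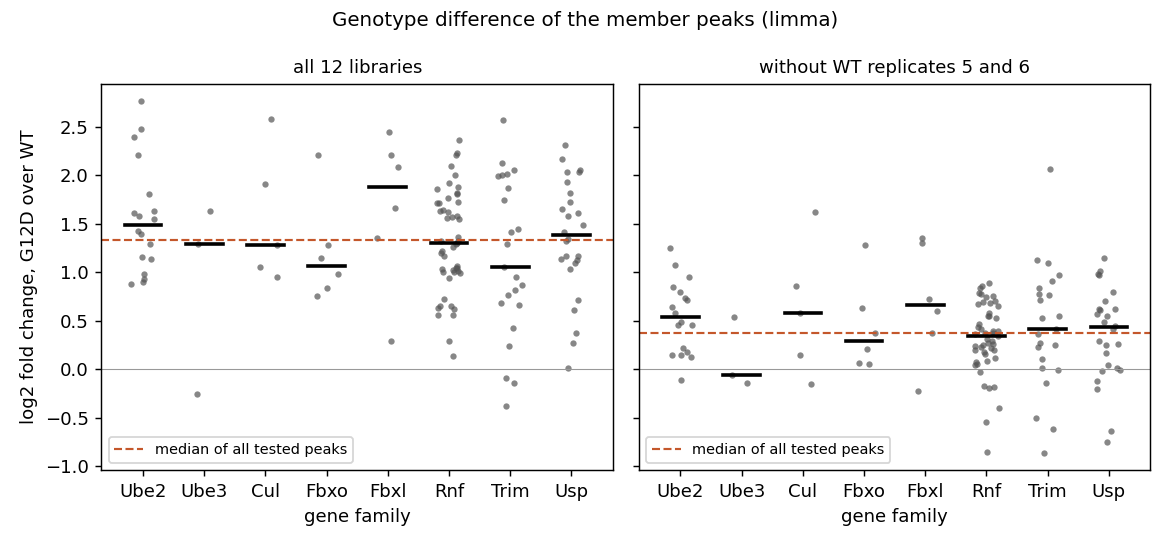
log2 fold change of G12D over WT (y axis, limma with batch) of each tested member peak by gene family (x axis), with all 12 libraries (left) and without WT replicates 5 and 6 (right); black bars are family medians and the dashed line is the median of all tested peaks. The dashed line stands at 1.33 on the left and 0.38 on the right. The family median furthest from it is that of Fbxl on the left, at 1.87 from 6 peaks. On the right it is that of Ube3, at -0.06 from 3 peaks.

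Among the E2 peaks higher in G12D, that in the 3'UTR of Ube2z, the E2 charged by Uba6, had the smallest limma p. Peaks of Cul5, Fbxl6 and Trim6, described below, had smaller ones. The Ube2z values were 0, 14.5 and 40.5 normalised counts in WT (lowest, median and highest) and 20.7, 71.7 and 88.0 in G12D. In all, 4 of the 6 G12D libraries lay above every WT library, and both WT zeros were the shallow replicates. The log2 fold change was 2.76 (SE 0.87, limma adjusted p = 0.108), or 1.43 relative to all peaks and 0.57 relative to them without the shallow libraries. Ube2g2, an E2 that clears misfolded proteins from the endoplasmic reticulum, had 0, 13.9 and 184 in WT and 32.5, 73.6 and 214 in G12D at its tallest 3'UTR peak, which carries a let-7 site. The highest WT value was that of replicate 4, at 184 beside 16.6 or less in the other 5, so the groups overlapped. Its log2 fold change was 2.48 (SE 0.88, limma adjusted p = 0.108), or 1.15 relative to all peaks and 0.42 without the shallow libraries. Ube2r2, a cullin partner related to Cdc34, had 4.53, 33.8 and 77.0 in WT and 30.1, 90.2 and 127 in G12D at an exon peak. Ube2c, the E2 of the anaphase-promoting complex in mitosis, had 0, 14.2 and 27.7 and 6.94, 25.6 and 57.3. The log2 fold changes of these exon peaks, 1.43 and 1.55, lay near the median of all peaks, and that of Ube2c was -0.08 within batch 1.

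Of the HECT ligases, Ube3a, the ligase lost in Angelman syndrome, was one of 4 tested members with a log2 fold change below 0. Its exon peak had 4.47, 15.0 and 24.7 in WT and 7.60, 9.33 and 19.3 in G12D, with a log2 fold change of -0.25 (SE 0.63, limma adjusted p = 0.727). The sign differed between batches, at 0.47 in batch 1 and -0.97 in batch 2. Relative to all peaks the change was -1.58, or -0.44 without the shallow libraries. Relative to all peaks of the same batch it was 0.03 in batch 1 and -3.22 in batch 2. Ube3c, a ligase at the proteasome, had 0, 6.89 and 18.9 in WT and 4.63, 13.7 and 32.8 in G12D at an exon peak with a miR-17 8mer. Its log2 fold change of 1.63 was 0.30 relative to all peaks.

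Of the cullins, the 5'UTR peak of Cul5, the scaffold that takes SOCS-box receptors, was low in every library. Values were 0, 0 and 6.91 in WT and 2.31, 10.2 and 24.8 in G12D. No read was seen in 4 WT libraries, and 3 G12D libraries lay above every WT library. A value of 6.91 in WT replicate 4 was the highest in WT, and the log2 fold change was 2.58 (SE 0.77, limma adjusted p = 0.108), or 1.25 relative to all peaks and 1.24 without the shallow libraries. Cul2, the scaffold of the Vhl ligase, had 9.06, 48.7 and 139.8 in WT and 67.1, 97.2 and 208 in G12D at its exon peak, and Cul4b, which works with Ddb1, 0, 10.97 and 28.6 in WT and 4.63, 17.1 and 38.5 in G12D at a 3'UTR peak. Their log2 fold changes of 1.06 and 0.95 became -0.27 and -0.38 relative to all peaks, and 0.20 and -0.53 relative to them without the shallow libraries.

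The F-box proteins gave the tall Fbxo32 peak, at chr15:58180905-58180960 with a 7-base let-7 site. It had 81.5, 204 and 388 in WT and 234, 310.0 and 412 in G12D, a narrow range in G12D. Its log2 fold change was 0.84 (SE 0.56, limma adjusted p = 0.226) and -0.49 relative to all peaks, but 0.25 without the shallow libraries. Fbxl19, a CpG-island-binding F-box protein, had a pair of 3'UTR peaks 71 bases apart. The first had 9.06, 19.0 and 93.8 in WT and 23.1, 88.4 and 185 in G12D, and the second 0, 14.3 and 64.7 and 20.8, 34.1 and 79.9. Both had their highest WT value in replicate 4, and neither passed. Their log2 fold changes of 1.66 and 2.21 were 0.34 and 0.88 relative to all peaks. Without the shallow libraries these became 0.22 and -0.006. The 3'UTR peak of Fbxl6 had 0, 1.68 and 12.3 in WT and 8.20, 17.5 and 23.4 in G12D, with 4 G12D libraries above every WT library and a log2 fold change of 2.44 (SE 0.75, limma adjusted p = 0.108). Relative to all peaks it was 1.11, and 0.98 without the shallow libraries.

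Of the RING ligases, the tallest Rnf peak was in the 3'UTR of Rnf169 at chr7:99922021-99922077, with a miR-200 site. It had 9.06, 165 and 309.8 in WT and 159.7, 263 and 355 in G12D, and its log2 fold change of 1.36 (SE 0.70, limma adjusted p = 0.148) was 0.04 relative to all peaks and -0.12 without the shallow libraries. Rnf167 had 9.06, 50.9 and 193 in WT and 45.6, 223 and 393 in G12D, with a log2 fold change of 1.72, 0.39 relative to all peaks and 0.30 without the shallow libraries. Its G12D libraries split by batch, with all 3 of batch 2 at 273 or more and those of batch 1 at 174 or less.

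In the Trim family, Trim6 gave the change that was largest relative to all peaks once the shallow libraries were left out. It was not in the let-7 cluster but in the 3'UTR peak at chr7:104234473-104234523. That peak had 0, 8.28 and 24.1 in WT and 13.9, 37.3 and 58.2 in G12D, with 4 G12D libraries above every WT library. The log2 fold change was 2.56 (SE 0.79, limma adjusted p = 0.108), 1.24 relative to all peaks and 1.68 relative to them without the shallow libraries. It was 2.40 within batch 1 and 2.73 within batch 2, but relative to all peaks of the same batch 1.96 and 0.48. Trim25 had 0, 51.7 and 190.4 in WT and 38.1, 164 and 573 in G12D at its exon peak. Its log2 fold change of 2.00 was 0.67 relative to all peaks and 0.39 without the shallow libraries. Trim33, a ligase for Smad4, had 0, 13.3 and 46.9 in WT and 35.3, 46.3 and 75.8 in G12D at an exon peak, with a log2 fold change of 2.05 (SE 0.77, limma adjusted p = 0.109), which was 0.72 relative to all peaks and 0.53 without the shallow libraries. A 3'UTR peak of Trim2, a neuronal ligase, with 8mers of miR-130/301 and miR-146, had 7.83, 17.0 and 26.2 in WT and 2.07, 10.7 and 49.6 in G12D. Its log2 fold change was the lowest of the members, at -0.38 (SE 0.63, limma adjusted p = 0.598), with -0.93 within batch 1 but 0.17 within batch 2. Relative to all peaks it was -1.71, or -0.99 without the shallow libraries. Relative to all peaks of the same batch it was below 0 in both, at -1.37 in batch 1 and -2.07 in batch 2.

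Of the deubiquitinases, the tallest peak was that of Usp1 in an exon at chr4:98932991-98933035. It had 13.6, 107 and 617 in WT and 83.5, 674 and 1094 in G12D, and 3 G12D libraries, all of batch 2, lay above every WT library. The log2 fold change was 2.31 (SE 0.84, limma adjusted p = 0.108), or 0.98 relative to all peaks. Without the shallow libraries, which both lie at 16.9 or less, it was 0.11 relative to all peaks. Usp37, which acts on cyclin A, had 0, 16.2 and 71.1 in WT and 23.5, 49.9 and 144 in G12D. Its log2 fold change of 2.05 was 0.72 relative to all peaks and 0.24 without the shallow libraries. The intron peak of Usp28, which stabilises Myc, carries a pair of 7-base let-7 sites and had 4.40, 8.09 and 22.7 in WT and 14.5, 16.2 and 31.2 in G12D, and its log2 fold change of 1.09 was -0.24 relative to all peaks but 0.23 without the shallow libraries. The tallest Usp9x peak, in an exon, had 0, 19.4 and 47.4 and 17.7, 21.8 and 66.1, and 1.17 became -0.16. None of these passed.

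The 10 members that DESeq2 called higher were peaks of Cul5, Fbxl6, Fbxo31, Trim25, Trim6, Ube2w, Usp53, Usp6nl, Usp8 and Usp9x (an intron peak), with DESeq2 adjusted p-values from 0.0128 (Cul5 and Trim6) to 0.0493 (Usp9x). Those outside the naming rule were chosen after their values were seen. Fbxo31, an F-box protein that targets cyclin D1, had values of 0, 6.14 and 12.3 in WT and 10.4, 19.8 and 40.2 in G12D at an exon peak, and 5 of 6 G12D libraries lay above every WT library. The same held for 3 other members, a 3'UTR peak of Usp6nl (0, 18.7 and 34.7 in WT and 33.2, 57.7 and 89.8 in G12D) and a pair of 3'UTR peaks of Trim25. These 4 were 2.94% of the tested members, beside 6.72% of all peaks, and no member had all 6 G12D libraries above or below all 6 WT libraries, beside 1.7% and 0% of all peaks. For these 10 peaks the limma adjusted p lay between 0.108 and 0.112, and the limma log2 fold change relative to all peaks was 0.54 (Trim25) to 1.25 (Cul5), or 0.38 (Trim25) to 1.68 (Trim6) without the shallow libraries. None of the 10 passed with DESeq2's own size factors. The authors' deposited table calls the same 10 with nearly equal values, such as a log2 fold change of 2.34 for Cul5 in both. It rests on the same reads and scaling and is no separate evidence.

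Other genes of the ubiquitin pathway were looked up from a list. Of its 148 symbols outside the member set (E1 enzymes, HECT ligases, anaphase-promoting complex, other deubiquitinases, proteasome), 66 had 157 peaks. Some of the symbols are alternative names of the same gene, such as March7 and Marchf7. Rnf43, which the member rule leaves out, is in the list and gave 6 of the 157 peaks. Of 154 tested, limma called 0 in either direction, 55 (35.7%, beside 35.9% of all peaks) were higher and 0 lower at an unadjusted p under 0.05, and DESeq2 with the deposited factors called 6 higher (3.82%, beside 9.87%) and 1 lower. Their median log2 fold change was 1.34. The tallest was an exon peak of the ligase March7, with a mean of 666, above every member, and a 3'UTR peak of the E2 Cdc34 had 460.3.

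Some member peaks differed between the batches. This comparison was added after the values were seen, and what the labels mean by a batch is not stated. In the same limma fit, 5 of 136 members were higher in batch 2 and 5 lower, beside 3.02% and 5.99% of all 7527 peaks, with the median of all peaks at -0.29. Trim36, Fbxo48, Trim26, Rnf6 and Trim25 gave the higher peaks, and Usp25, Fbxl17, Rnf111, Usp8 and Rnf213 the lower ones. All 10, which were chosen by this fit, kept their direction in each of the 18 other fits run on these libraries or on some of them.

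The Trim36 peak had 116, 85.2 and 121 normalised counts in the WT libraries of batch 1 and 475, 1336 and 600.1 in those of batch 2. In G12D it had 86.4, 91.3 and 208 and 1534, 702 and 689. The log2 difference of batch 2 over batch 1 was 2.84 (SE 0.54, limma adjusted p = 0.00456), and it was 2.93 in G12D and 2.76 in WT alone. This peak took 63.2% of the member reads of WT replicate 5 and 1.79% to 24.7% in the other libraries. The members' share of peak reads was 1.12% to 1.39% in batch 1 and 1.53% to 1.77% in batch 2, but without the Trim36 peak it was 1.10% to 1.32% and 0.562% to 1.45%. The lowest of these was WT replicate 5, and the other 5 libraries of batch 2 had 1.33% to 1.45%, still above every library of batch 1.

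Fbxo48, an F-box protein gene, had 15.0, 9.68 and 4.63 in the G12D libraries of batch 1 and 145, 95.4 and 92.2 in those of batch 2 at a 3'UTR peak, with 8mers of miR-23 and miR-17. WT gave 12.7, 1.89 and 13.4 and 70.6, 22.6 and 55.4, and the log2 difference was 2.97 (SE 0.65, limma adjusted p = 0.008). The 3'UTR peak of Rnf6 stood at 9.65, 7.60 and 34.7 in G12D of batch 1 and 210.3, 82.5 and 109 in batch 2. The log2 difference was 2.67 over both genotypes (SE 0.67, limma adjusted p = 0.0139), and in WT replicate 5 the peak had 18.1. In the other direction, the exon peak of Usp25 with a miR-200 8mer had 29.9, 67.1 and 13.9 and then 3.42, 6.19 and 2.84 in G12D, a log2 difference of -3.50 over both genotypes (SE 0.75, limma adjusted p = 0.00718). An exon peak of Rnf111 (Arkadia, a ligase of TGF-beta signalling) with a let-7 site had 79.1, 67.1 and 6.94 and 3.42, 5.67 and 3.55. A 3'UTR peak of Usp8, which acts on sorted receptors in endosomes, had 62.7, 51.2 and 9.26 and 2.56, 4.13 and 1.42. The log2 differences of the 6 peaks not yet given were -3.17 in Rnf111, -2.99 in Usp8, -2.89 in an intron of Fbxl17, -2.46 in the 3'UTR of Rnf213, 3.24 in an exon of Trim26 and 2.40 in the 3'UTR of Trim25.

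**Figure D5:**
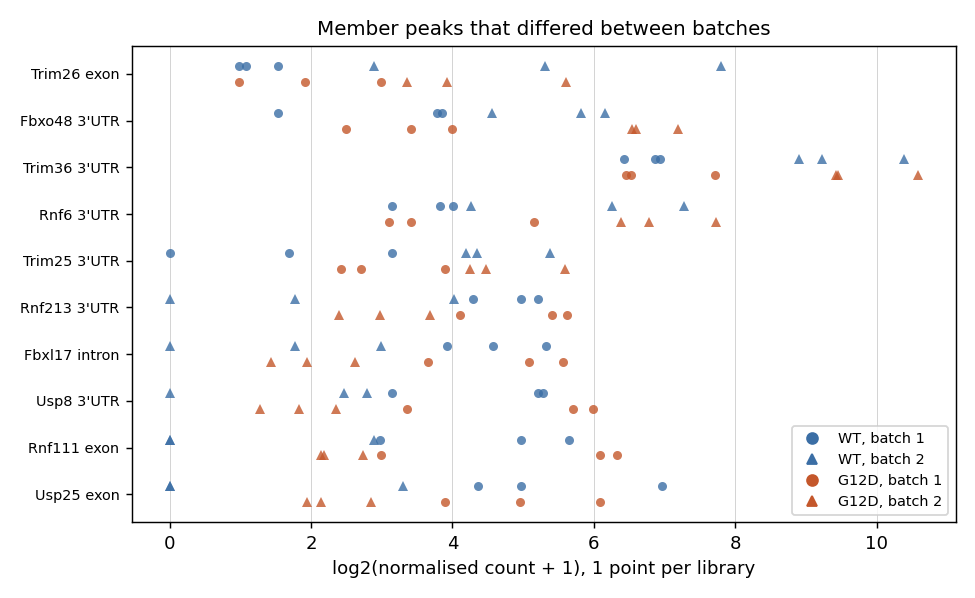
log2 of the normalised count plus 1 (x axis) in each library for the 10 member peaks past the limma threshold between batches (y axis, ordered by the log2 difference); blue is WT, red is G12D, circles are batch 1 and triangles batch 2. The triangles lie to the right in the upper 5 peaks and to the left in the lower 5, and the batches overlap over both genotypes only in Trim26 and Rnf6.

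The counts between batches moved with the libraries used. Without WT replicates 5 and 6, both of batch 2, 51 members were higher and 5 lower, beside 34.8% and 5.97% of all peaks, and all 10 peaks passed again. Within the G12D libraries 29 were higher and 5 lower, beside 20.5% and 4.37%, and 8 of the 10 passed, the exceptions being Trim26 (adjusted p = 0.0582, limma) and Trim25 (adjusted p = 0.0539, limma). Within the WT libraries 0 passed in either direction, with 14 of 136 at an unadjusted p under 0.05 (10.3%, beside 16.7% of all peaks) and DESeq2 over all libraries calling 29 higher and 12 lower, beside 18.6% and 11.9% of all peaks. Without WT replicate 5 limma called 16 higher and 5 lower, beside 9.17% and 5.14% of all peaks, and without WT replicate 4 it called 5 and 20, beside 3.87% and 16.2%.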

How the data were processed

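Read alignment and normalisation were done by the authors. Per the submitters' processing notes the tools included STAR 2.5.2b and DESeq2, with builds mm10 and GRCm38. Which caller made the peaks is not given in the sources at hand. The deposited signal values are reads per merged peak (7730) or miRNA (596) scaled by a factor per library, whole multiples of 1 read within 0.001 reads for 100% of values, so reads were recovered. Peak columns name the model and number only and were taken as the mRNA libraries, and input libraries were not analysed here. Deposited log2 fold changes and p-values are the authors' own. The score in the deposited peak lists has no stated unit and was used only to tell which list holds a peak. Regions marked with an asterisk in the authors' annotation were pooled with the plain label. Gene and seed site names are the authors'. One Rnf139 peak is also assigned to another transcript.

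limma 3.58.1 (R 4.3.3) was fitted to log2(value + 1) with genotype and batch, on every peak whose mean was 5 or more (7527) and every miRNA whose mean was 10 or more (284). P-values were adjusted over all of them by Benjamini-Hochberg, at 0.05. edgeR 4.0.16 and DESeq2 1.42.0 on recovered reads, other pseudocounts, filters and scalings and left-out libraries were alternatives. The scripts were tested on simulated data. Named peaks were the 2 highest of each family, the 4 higher and 2 lower members of smallest limma p, listed genes (Usp9x, Usp28, Ube2c, Ube3a and Trim33 had peaks) and genes with 4 or more peaks, and the batch and DESeq2 calls were added after their values were seen. Members and lists were chosen with earlier results of these data known. The rule for miRNAs asked for 8 seed families, and a tie made it 10. The replicate numbers were not taken as pairs: correlations of deviations between peak libraries of the same number ran from -0.11 to 0.65.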

Additional observations from a re-analysis of the deposited data

Results flagged for a closer look

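Of 88 groups of 6 libraries checked (named peaks and leading miRNAs, each genotype), 12 had a library that lay apart from the rest of its group by Dixon's criterion. By chance about 1 in 20 of the groups checked would be flagged. That share holds for normally distributed values and independent groups, and neither was shown here. WT replicate 4 was the highest of its group in 7 of them: Cul5 (6.91 normalised counts), both Fbxl19 peaks (93.8 and 64.7), Rnf167 (193), Ube2g2 (184), Usp1 (617) and Usp37 (71.1). WT replicate 4 is the deepest WT library and the only deep one of WT in batch 2. The Usp25 exon peak stood out in WT replicate 3 (124), and the Trim26 exon peak in WT replicate 5 (222) and G12D replicate 4 (47.9). let-7i-5p was highest in WT replicate 2 (6596), and miR-194-5p was lowest in G12D replicate 1 (11406.5).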

How the results depend on the processing

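Of the 1013 alternative values of the 45 named peaks and miRNAs, 916 kept their direction and side of the threshold, 31 fell below it (all batch differences), 28 passed it and 38 turned in sign. The count of members higher in G12D was 0 with limma, 10 with DESeq2 and the deposited size factors, 0 with DESeq2's own size factors, 0 with edgeR under either scaling, 8 with a pseudocount of 5, 3 within batch 2 and 0 to 69 when 1 library was left out, with the 69 without WT replicate 4. It was 0 with the replicate number as a block (replicate block, median 1.32), which changed no call, and 1 of 6 peak libraries correlated best with its own number. No alternative called a member lower. The members' median was 0.078 with size factors estimated on the peaks by DESeq2, -0.0092 relative to the median peak, and 0.92 to 1.76 with 1 library left out. Signs turned with DESeq2's own size factors, with edgeR's TMM factors and relative to the median peak, in that order, for Cul2 (-0.36, -0.33 and -0.27), Cul4b (-0.31, -0.28 and -0.38), Fbxo32 (-0.37, -0.30 and -0.49), Fbxo48 (-0.51, -0.48 and -0.57), Trim36 (-1.11, -1.01 and -1.09) and Usp9x (-0.16, -0.11 and -0.16), and for Usp28 in the last alone (-0.24). Within batch 1 they turned for Cul4b (-0.23), Ube2c (-0.078), Ube3a (0.47), let-7i-5p (0.029), miR-194-5p (-0.026), miR-200c-3p (0.035) and miR-24-3p (0.072), within batch 2 for Trim2 (0.17) and miR-19b-3p (-0.20), and without WT replicates 5 and 6 for Cul4b (-0.15). With 1 library left out, miR-19b-3p ran from -0.067 to 0.090 and miR-24-3p from -0.055 to 0.038. The cause was not tested.

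Between batches, against 5 higher and 5 lower, the counts were 29 and 12 with DESeq2 (deposited size factors), 10 and 11 with a pseudocount of 5, 29 higher in G12D libraries alone, 0 and 0 in WT libraries alone, 51 higher without WT replicates 5 and 6, and 3 to 16 higher and 3 to 20 lower with 1 library left out. Depth differed within WT: of the 74 member peaks with a mean under 20, 58 had no read in WT replicate 5 and 36 in WT replicate 6.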
